A study of Mus musculus with 16 samples.

Results

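CD11c-positive macrophages of obese mice, called obese FBC here, were set against CD11c-negative macrophages of lean mice, called lean FB, across all genes of the array on a log2 scale. The arrays were chosen by their labels alone: the 4 labelled obese FBC and the 4 labelled lean FB, 8 of the 16 arrays of the series. All cells came from perigonadal fat of mice 12 to 14 weeks old and were sorted as positive for F4/80, the macrophage antigen encoded by Adgre1, and for CD11b. FB cells were negative for CD11c and FBC cells positive. The lean mice were C57BL/6J with Lep +/+, and the obese mice were C57BL/6J with Lep ob/ob, which make no working leptin, so obesity and the lack of leptin cannot be told apart. Both populations were taken from the same 4 lean and 4 obese mice, so obese FBC and lean FB came from different mice and differed in genotype and in gate at once. The other 8 arrays take only one of these steps from lean FB: the 4 obese FB arrays change the mouse and the 4 lean FBC arrays change the gate. They were used to read how much of each change a single step already showed.

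Macrophages of lean fat are mostly resident cells that clear debris, and many carry genes of the interleukin 4 response. In obesity monocytes enter the tissue, and macrophages that carry CD11c, an integrin encoded by Itgax, gather around dying fat cells, take up their lipid and break it down in lysosomes. Such lipid-associated macrophages share with bone-resorbing osteoclasts a set of secreted acid hydrolases, a proton pump and the MiT/TFE transcription factors, which bind the letters TCACGTGA or the core CACGTG in promoters of lysosomal genes.

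Levels below are log2(intensity + 16) after quantile normalization, so a difference of 1 is a doubling for a bright gene and understates the change of a dim one, and values of 4 arrays are given in the order of their label numbers. A gene was called changed at an adjusted p under 0.05 (limma, Benjamini-Hochberg over all 11908 genes tested), and errors on differences are standard errors of that fit. Nothing in the labels ties an array to 1 mouse, so an adjusted p reflects the spread between arrays, part of which may be technical. Because each array holds a pool of sorted cells, fewer cells of a type and less RNA per cell cannot be told apart. The median level of the arrays was 5.87, and a gene near or below it is close to background. The highest level was 14.09, and a difference from levels close to it may be understated, since bright probe sets can saturate. Each gene was read from its brightest probe set. With the mean over all its probe sets instead, 37 of 172 called named genes moved by over 1.5 times and 10 lost their call. Among them the rises of Sox4 and Cpe went from 4.09 to 1.07 and from 4.60 to 2.63, and the changes of Vcan, Car3 and Ccnd2 from -2.91 to -0.79, from -3.77 to -1.29 and from -2.04 to -0.84.

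The sort was checked on its markers. The log2 levels of Itgax were 8.59, 8.74, 8.78 and 9.10 on the lean FB arrays and 11.48, 10.59, 11.11 and 10.77 on the obese FBC arrays. The groups did not overlap, and Itgax rose by 2.19 ± 0.26 (adjusted p = 3.01e-05). Lean FBC arrays, at 9.69, 10.21, 10.39 and 10.89, already showed 68.2% of that rise, and obese FB arrays, at 8.70, 8.57, 9.31 and 8.55, none of it (a difference from lean FB of -0.02 ± 0.26). Adgre1 stood 0.67 ± 0.24 higher in obese FBC without being called (adjusted p = 0.0549), and Itgam, which encodes CD11b, differed by 0.07 ± 0.29 (adjusted p = 0.902). The macrophage genes Csf1r, Lyz2 and Cd14 were near the top of the scale on every array, between 13.36 and 13.68 for Csf1r. The Lep probe set was dim, with group means from 4.59 to 6.13, and cannot check the genotype: its rise of 1.54 ± 0.36 (adjusted p = 0.00781) lies near background.

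Arrays of one group correlated at 0.927 or more across genes. Lean FB array 4 stood apart from the other 3 lean FB arrays: its 3 prime to 5 prime actin ratio, which rises as RNA is degraded or shortened by amplification, was 53.3 against 2.32 to 10.9, and its eosinophil markers were higher and its fibroblast markers lower, with values given below. Lean FBC array 4 and obese FB array 4 had ratios of 48.0 and 45.0, while the 4 obese FBC arrays lay between 1.15 and 4.69, so this sign of RNA quality moves in part with the comparison. The same ratio for Gapdh was 26.5, 41.5 and 28.0 on array 4 of lean FB, lean FBC and obese FB. It was also high on obese FBC array 3, at 28.1 against 3.05 to 10.5 on the other obese FBC arrays. The actin and Gapdh ratios thus did not rank the arrays alike, and only the actin ratio was used in the fits below. With the actin ratio as a covariate 2265 genes changed between obese FBC and lean FB, 1115 differed between obese FB and lean FBC and 420 lay on the obesity side, against 2335, 790 and 283 without it, counts whose rules are given below. The covariate ended the call of 15 of the 174 called genes that were named by rule and moved the value of 10 by over 1.5 times, with the values of those described here given beside them. Without the 3 arrays of high actin ratio 3239 genes changed and 860 lay on the obesity side. The part of RNA quality in the results was not tested otherwise. Within obese FBC, arrays 1 and 4 differed from arrays 2 and 3 in several gene groups, with values given where it matters.

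Obese FBC and lean FB differed in 2335 of 11908 genes tested (19.6%), of which 1425 were higher in obese FBC (12.0% of genes tested) and 910 lower (7.64%). All counts of called list members below are to be read beside these shares. At least 2-fold changes were found for 594 higher and 517 lower genes. The 4 and 4 arrays did not overlap for 2022 of the called genes, which is no separate support, since a call already favours such separation. The share without overlap over all genes tested was not counted. The median change over all genes was 0.07, and median centring of the arrays, which moves that median to 0.15, gave 1766 higher and 678 lower. On their own, obese FB differed from lean FB in 701 genes (5.89%) and lean FBC from lean FB in 23 (0.193%), 2 comparisons that share the lean FB arrays with the first.

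To ask which step was the larger for a gene without reusing those arrays, obese FB was compared with lean FBC, 8 arrays that the first comparison does not hold. That test called 305 genes higher in obese FB (2.56%) and 485 lower (4.07%). A called change was placed on the obesity side where obese FB lay beyond lean FBC in the same direction, on the CD11c side where it lay beyond in the opposite direction, and left undecided where this test did not pass. By this rule 283 of the 2335 changes (12.1%) were on the obesity side, 61 (2.61%) on the CD11c side and 1991 (85.3%) undecided. The split differed with direction: 212 of the 910 falls (23.3%) but 71 of the 1425 rises (4.98%) were on the obesity side, against 40 falls (4.40%) and 21 rises (1.47%) on the CD11c side. An undecided gene is not shown to depend equally on both steps. Both comparisons share mice though not arrays. A difference between mice therefore enters both in the same direction and can place a gene on the obesity side. The part of this in the counts was not tested. These counts depended on single arrays: the obesity side held 181 genes without lean FBC array 2 and 186 without obese FB array 3, and the CD11c side held 39 and 37 without these, 35 without obese FB array 2, and 40 and 37 without obese FBC arrays 2 and 4. The test between obese FB and lean FBC called 474, 496 and 483 genes without lean FBC array 2, obese FB array 2 and obese FB array 3, in that order.

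**Figure D1:**
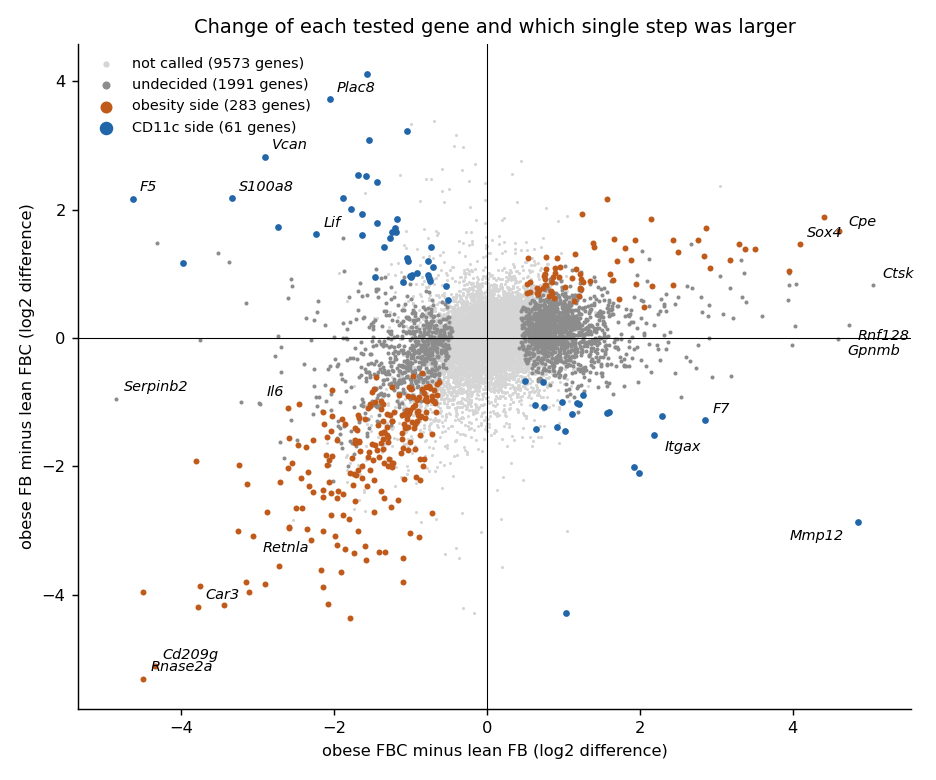
Each point is a tested gene: the x axis is its log2 difference of obese FBC from lean FB, and the y axis its log2 difference of obese FB from lean FBC, which uses the other 8 arrays. Orange marks the 283 changed genes on the obesity side, blue the 61 on the CD11c side, dark grey the 1991 undecided ones and light grey the genes not called; the lower left, which holds Rnase2a, Cd209g and Retnla, is the most filled coloured quadrant.

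Shares of a change give the size of each step, as a description, since the genes were chosen by the whole change and every step starts from the same lean FB arrays. Among the 594 genes at least 2-fold higher, obese FB already showed a median of 37.0% of the rise (quartiles 19.2% and 50.5%) and lean FBC 23.4% (8.86% and 41.9%). Among the 517 at least 2-fold lower, obese FB already showed 64.1% of the fall (28.5% and 103%) and lean FBC 17.5% (-1.96% and 35.9%). For the 165 of these falls on the obesity side the medians were 112% in obese FB and -3.10% in lean FBC, and for the 29 on the CD11c side they were -62.0% and 64.8%. A negative share means that the single step went the other way, as obese FB did for most falls on the CD11c side. Of all 2335 changes, 1452 had both single-step group means between the ends, while obese FB passed an end for 517 and lean FBC for 535.

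The gene that rose most was Ctsk, which encodes cathepsin K, the protease with which osteoclasts digest bone collagen. Its log2 levels were 8.11, 7.48, 7.98 and 6.45 on the lean FB arrays and 13.12, 12.19, 12.07 and 12.85 on the obese FBC arrays. Every obese FBC array was above every lean FB array, by 5.05 ± 0.46 on average, a 33.1-fold rise (adjusted p = 1.99e-06). The single steps were partial: obese FB arrays, at 10.50, 9.51, 10.93 and 8.57, showed 47% of the rise and lean FBC arrays, at 9.34, 8.77, 9.60 and 8.49, 30.6%. Gpnmb, a membrane glycoprotein of lipid-laden and lysosome-rich macrophages, had log2 levels of 8.04, 8.04, 8.37 and 7.18 in lean FB and 12.69, 12.28, 12.44 and 12.60 in obese FBC, a rise of 4.59 ± 0.37 (adjusted p = 5.69e-07). Its groups did not overlap, and each single step showed a minor share of it, 29.3% in obese FB and 29.5% in lean FBC. Rnf128, an E3 ubiquitin ligase, had large shares in both steps: log2 levels of 7.37, 7.21, 7.33 and 8.23 in lean FB and 12.56, 12.22, 11.92 and 12.37 in obese FBC gave a rise of 4.73 ± 0.26, of which obese FB showed 66.3% and lean FBC 62.2%.

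Atp6v0d2 encodes the d2 subunit of the vacuolar proton pump, a form found in osteoclasts and macrophages. It read 8.02, 7.78, 7.87 and 7.11 in lean FB and 12.15, 11.42, 11.44 and 11.90 in obese FBC on the log2 level scale, and rose by 4.03 ± 0.35 (adjusted p = 1.13e-06). The groups did not overlap, and the steps were of like size, 42.5% in obese FB and 37.9% in lean FBC. Other leading rises were those of Cdk18, a kinase of the cyclin-dependent family, by 4.04 ± 0.30, Lhfpl2, a membrane protein, by 3.99 ± 0.27, Pcdh7, a protocadherin, by 3.95 ± 0.43, and Zranb3, a DNA translocase of stalled replication forks, by 3.95 ± 0.39. Obese FB showed 43.5%, 43%, 49.2% and 43% of these rises in that order, and none of the 4 could be placed on either side. Cdk18 and Pcdh7 were below the array median in lean FB, so the size of their rises is imprecise. With the mean of their probe sets Lhfpl2 rose by 2.16 and Pcdh7 by 2.38.

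Mmp12, macrophage elastase, rose nearly as much as Ctsk and was the leading rise on the CD11c side. Its log2 levels were 7.33, 7.29, 7.40 and 5.54 in lean FB, 10.60, 9.92, 11.13 and 9.82 in lean FBC, 8.97, 6.96, 7.65 and 6.41 in obese FB and 12.78, 11.001, 11.11 and 12.09 in obese FBC. The lean FBC arrays already stood near the obese FBC ones, while the obese FB arrays stayed below every lean FBC array. The rise of 4.85 ± 0.55 (adjusted p = 1.79e-05) was present at 71.6% in lean FBC and 12.5% in obese FB, and obese FB differed from lean FBC by -2.87 ± 0.55 (adjusted p = 0.00354). Other rises on this side were those of Itgax itself, of Tbc1d4, a Rab GTPase-activating protein of glucose transporter traffic, by 1.99 ± 0.44, and of Mreg, melanoregulin, by 1.92 ± 0.30. F7, coagulation factor VII, also rose by 2.85 ± 0.33, from 6.28, 6.56, 6.62 and 6.43 to 10.28, 8.74, 8.87 and 9.41 on the log2 level scale, without overlap. Its place on the CD11c side (obese FB minus lean FBC -1.28 ± 0.33, adjusted p = 0.0275) was lost on leaving out lean FBC array 1, 3 or 4 or obese FB array 2, 3 or 4, with adjusted p-values of 0.050 to 0.087.

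Rises on the obesity side were led by Cpe, carboxypeptidase E, which trims peptide hormones. Its log2 levels were 7.69, 7.69, 7.75 and 7.13 in lean FB, 9.06, 8.08, 8.78 and 7.06 in lean FBC, 10.30, 9.22, 10.54 and 9.56 in obese FB and 12.39, 11.96, 11.54 and 12.79 in obese FBC. All obese FB arrays were above all lean FBC arrays, and the whole rise was 4.60 ± 0.39 (adjusted p = 1.12e-06), of which obese FB showed 50.9% and lean FBC 14.8%. The transcription factor gene Sox4 had levels of 6.06, 5.98, 5.81 and 6.73 in lean FB and 10.53, 10.22, 9.56 and 10.62 in obese FBC and rose by 4.09 ± 0.37, with 59.6% already in obese FB, and 5 of its 7 other probe sets moved the same way. For Cpe and Sox4 the difference of obese FB from lean FBC (1.66 ± 0.39 and 1.46 ± 0.37, adjusted p = 0.0166 and 0.0237) did not pass without lean FBC array 2, obese FB array 1 or obese FB array 3, and for Sox4 also without lean FBC array 3 or obese FB array 2. Cadm1, an adhesion molecule of the immunoglobulin family, held in every setting. It had levels of 7.26, 7.59, 7.69 and 7.69 in lean FB, 7.75, 8.19, 8.05 and 7.9996 in lean FBC, 10.36, 8.79, 9.77 and 8.64 in obese FB and 11.34, 10.99, 10.72 and 10.67 in obese FBC, and rose by 3.37 ± 0.30 (adjusted p = 1.56e-06). Obese FB lay 1.39 ± 0.30 above lean FBC (adjusted p = 0.00965), without overlap. Gpr176, a G protein-coupled receptor, rose by 3.50 ± 0.28 and was 1.39 ± 0.28 higher in obese FB than in lean FBC (adjusted p = 0.00612), and Efr3b, a membrane anchor for a lipid kinase, rose by 4.41 ± 0.43, with its side (adjusted p = 0.0122) lost without lean FBC array 2. Both were below the array median in lean FB, and the rise of Efr3b was 2.41 with the mean of its probe sets.

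Several receptors of the cell surface and of endosomes rose on the obesity side. Tlr13, an endosomal sensor of bacterial ribosomal RNA, rose by 2.14 ± 0.20 to a mean log2 level of 11.57 ± 0.08 (SD, n = 4). Obese FB stood at 11.14 ± 0.23, above lean FBC by 1.85 ± 0.20 (adjusted p = 1.82e-05). Fcgr4, a receptor for IgG, rose by 1.57 ± 0.32, with obese FB at 9.66 ± 0.25 and obese FBC at 9.29 ± 0.18 on the log2 level scale. Integrin genes followed: Itga6, part of a laminin receptor, rose by 2.44 ± 0.22 and Itgb5, part of a vitronectin receptor, by 1.66 ± 0.23, and both were higher in obese FB than in lean FBC, by 1.53 ± 0.22 and 1.54 ± 0.23. Tgfbr1, a receptor of transforming growth factor beta, rose by 1.23 ± 0.19, of which obese FB showed 80.7%. Of the 19 Toll-like receptor genes tested, 2 rose and 1, Tlr5, the flagellin receptor, fell by 1.29 ± 0.33. Of the 19 integrin genes tested, 6 rose and 1 fell. Over all genes tested 12.0% rose and 7.64% fell, to which the Toll-like receptor counts are close.

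**Figure D2:**
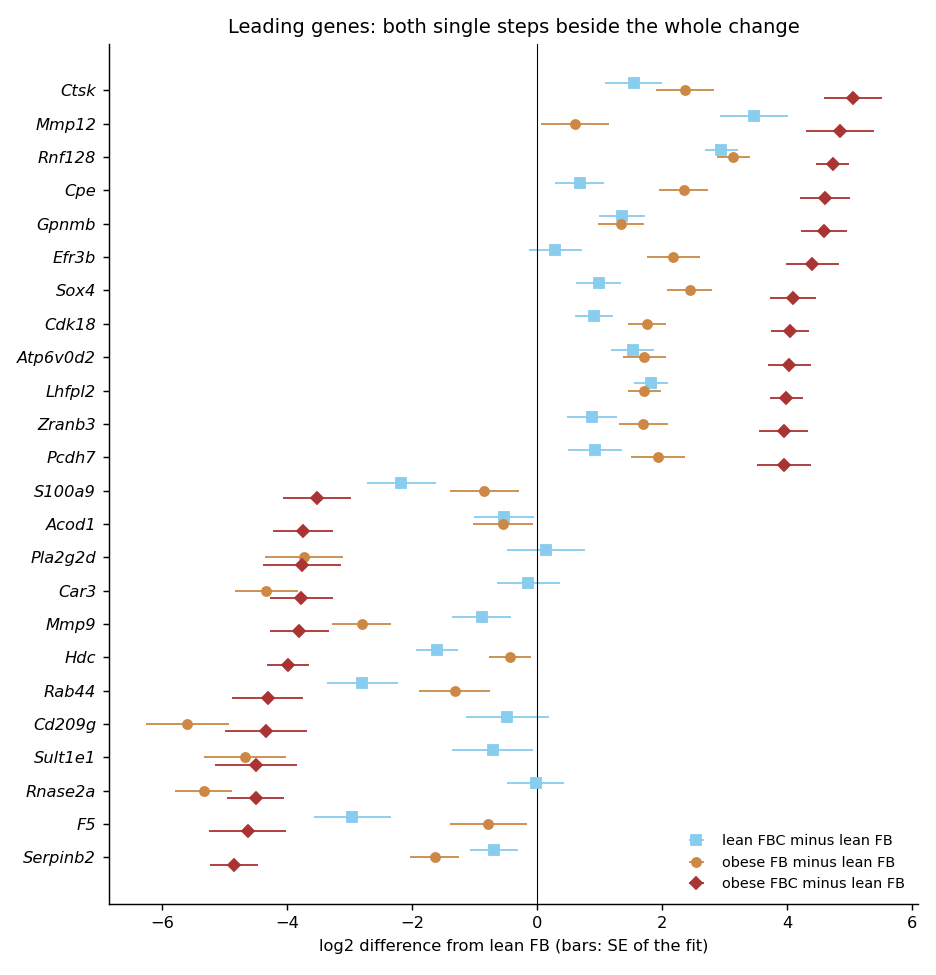
Log2 differences from lean FB, with standard errors of the fit as bars, for the 12 highest and 12 lowest changes named by rule: lean FBC (squares), obese FB (circles) and obese FBC (diamonds). For Ctsk, Gpnmb and Atp6v0d2 both single steps fall well short of the whole change, for Mmp12 lean FBC comes close to it, and for Rnase2a, Cd209g, Sult1e1, Car3 and Pla2g2d obese FB reaches or passes it.

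Genes of the lysosome rose as a group. Of 49 tested genes of lysosomal hydrolases and membrane proteins, 19 rose and 2 fell, with a median change of 0.60 against 0.07 over all genes. The mean centred log2 level of the list was between 0.44 and 0.49 on the 4 obese FBC arrays and between -0.48 and -0.04 on the lean FB arrays, with the lowest value on lean FB array 4. Without that array 16 rose and 3 fell. Of the 18 proton pump genes, 7 rose and 1 fell, and of the 13 cathepsins 4 rose and 1 fell. With rises and falls together, 17, 8 and 4 called genes of these 3 lists, in that order, were undecided. On the obesity side were 4, all of the first list, and 1 cathepsin gene was on the CD11c side. Of all called genes 85.3% were undecided, so being undecided does not set these lists apart.

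The letters TCACGTGA on either strand were searched in the promoters of these genes, in windows from 250 bases before to 50 bases after the start of the gene, in a table drawn from RefSeq (build GRCm38.p6). Of the 62 tested genes of the 3 lists with a promoter in the table, 11 held it (17.7%), against 2.24% of 9631 tested genes of all kinds and 1.12% of all 27025 genes of the table. Among the list members that rose, 5 of 22 held it (22.7%), and among those not called higher 6 of 40 (15.0%). Not every risen member could be searched. The table had promoters for 16 of the 19 risen genes of the first list, for 3 of the 7 risen pump genes and for all 4 risen cathepsins. The shorter core CACGTG, which every TCACGTGA contains, was in 20 of the 62 (32.3%) and 11.7% of all tested genes. A match is a description of these letters and shows neither binding nor a cause. The 150 bases just before the start are printed for the 5 risen members with TCACGTGA and for Naglu, which holds only the core, because they are where the motif and the measured rise meet. Capitals mark TCACGTGA, or CACGTG in Naglu, and all are written 5′ to 3′ in the direction of the gene. Igf2r, which holds the letters at 2 places, lies at chr17:12769707-12769856, minus strand, Ctsd at chr7:142387828-142387977, minus strand, Atp6v1a at chr16:44139260-44139409, minus strand, Ctsa at chr2:164833623-164833772, plus strand, Cln3 at chr7:126583237-126583386, minus strand, and Naglu at chr11:101069944-101070093, plus strand. The table holds 2 promoters for Ctsa and for Cln3, of which the one with the letters is shown.
Igf2r: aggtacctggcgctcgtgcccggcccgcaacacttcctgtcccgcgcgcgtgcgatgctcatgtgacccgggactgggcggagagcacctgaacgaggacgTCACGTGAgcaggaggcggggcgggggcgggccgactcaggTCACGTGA
Ctsd: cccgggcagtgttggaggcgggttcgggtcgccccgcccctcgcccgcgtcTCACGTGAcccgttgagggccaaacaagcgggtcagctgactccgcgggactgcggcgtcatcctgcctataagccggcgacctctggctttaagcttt
Atp6v1a: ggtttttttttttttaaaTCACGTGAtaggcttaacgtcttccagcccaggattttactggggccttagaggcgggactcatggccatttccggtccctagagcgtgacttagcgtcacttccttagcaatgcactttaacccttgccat
Ctsa: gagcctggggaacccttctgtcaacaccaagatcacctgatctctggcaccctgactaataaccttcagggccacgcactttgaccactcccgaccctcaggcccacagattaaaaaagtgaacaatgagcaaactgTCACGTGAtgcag
Cln3: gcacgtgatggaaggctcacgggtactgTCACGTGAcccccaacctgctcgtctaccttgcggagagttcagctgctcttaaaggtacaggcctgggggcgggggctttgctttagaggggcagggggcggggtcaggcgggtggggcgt
Naglu: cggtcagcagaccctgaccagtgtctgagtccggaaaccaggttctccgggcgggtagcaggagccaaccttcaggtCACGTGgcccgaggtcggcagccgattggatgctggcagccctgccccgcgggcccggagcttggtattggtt

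Of these genes Igf2r, the mannose 6-phosphate receptor that carries new hydrolases to the lysosome, changed most. Lean FB arrays had log2 levels of 6.57, 6.72, 6.63 and 6.27, and obese FBC arrays 10.30, 8.61, 9.69 and 9.95. The groups did not overlap, and the rise was 3.09 ± 0.41 (adjusted p = 9.25e-05), with 43% in obese FB and 31.1% in lean FBC. Ctsd, an aspartic protease, was bright in every group, at 11.18, 11.21, 11.54 and 10.74 in lean FB and 13.23, 12.99, 12.97 and 13.19 in obese FBC, and rose by 1.93 ± 0.33 (adjusted p = 0.000806). Little of it was seen in either single step, 13.7% in obese FB and 22.8% in lean FBC. The protective protein gene Ctsa rose by 0.93 ± 0.20, the pump subunit Atp6v1a by 1.12 ± 0.22, the Batten disease gene Cln3 by 0.73 and the heparan sulfate hydrolase Naglu by 1.44.

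Other lysosomal genes rose for which TCACGTGA was not found, either because the window searched lacked it or because the table held no promoter. Gusb, beta-glucuronidase, had the tightest groups, with log2 levels of 10.28, 10.16, 10.33 and 10.18 in lean FB, 10.32, 10.49, 10.84 and 10.65 in lean FBC, 11.20, 11.13, 11.16 and 10.91 in obese FB and 12.78, 12.60, 12.26 and 12.60 in obese FBC. Obese FB lay above lean FB and both lay below every obese FBC array, and the rise was 2.32 ± 0.16 (adjusted p = 1.5e-07), of which obese FB showed 37%. Pld3, a lysosomal nuclease, rose by 2.76 ± 0.49, and Acp5, the tartrate-resistant acid phosphatase of osteoclasts, by 2.05 ± 0.36. Cd68, a lysosomal membrane protein used as a macrophage marker, rose by 1.10 ± 0.33 (adjusted p = 0.0292), a call that was lost on leaving out some single arrays, and by 0.55 with the actin ratio as covariate. Tcirg1, the pump subunit that osteoclasts need to acidify bone, rose by 1.44 ± 0.17. Against these, the pump subunit Atp6v1h fell by 1.87 ± 0.48, although 1 of its 2 other probe sets moved the other way, and Ctse, an aspartic protease of endosomes, fell by 1.19 ± 0.38 with its other probe set opposed. The change of Atp6v1h was -0.44 with the mean of its probe sets (adjusted p = 0.312), and that of Ctse -0.73 with the actin ratio as covariate (adjusted p = 0.12), neither of them called. Of 16 osteoclast and cell fusion genes tested, 8 rose and 1 fell, and 5 rose without lean FB array 3.

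Of the 4 MiT/TFE factors, Tfeb alone was called. It read 7.02, 6.89, 6.48 and 7.45 in lean FB and 7.63, 7.46, 7.55 and 8.05 in obese FBC on the log2 level scale, and lean FB array 4 lay just below the lowest obese FBC array. The difference of 0.71 ± 0.22 (adjusted p = 0.0306) did not pass without lean FB array 1, 2 or 3 or obese FBC array 1 or 4, with adjusted p-values of 0.054 to 0.10. Tfec differed by 0.81 ± 0.44 (adjusted p = 0.207), Mitf by 0.49 ± 0.19 (adjusted p = 0.0774) and Tfe3 by -0.10 ± 0.27 (adjusted p = 0.839), none of which was called.

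**Figure D3:**
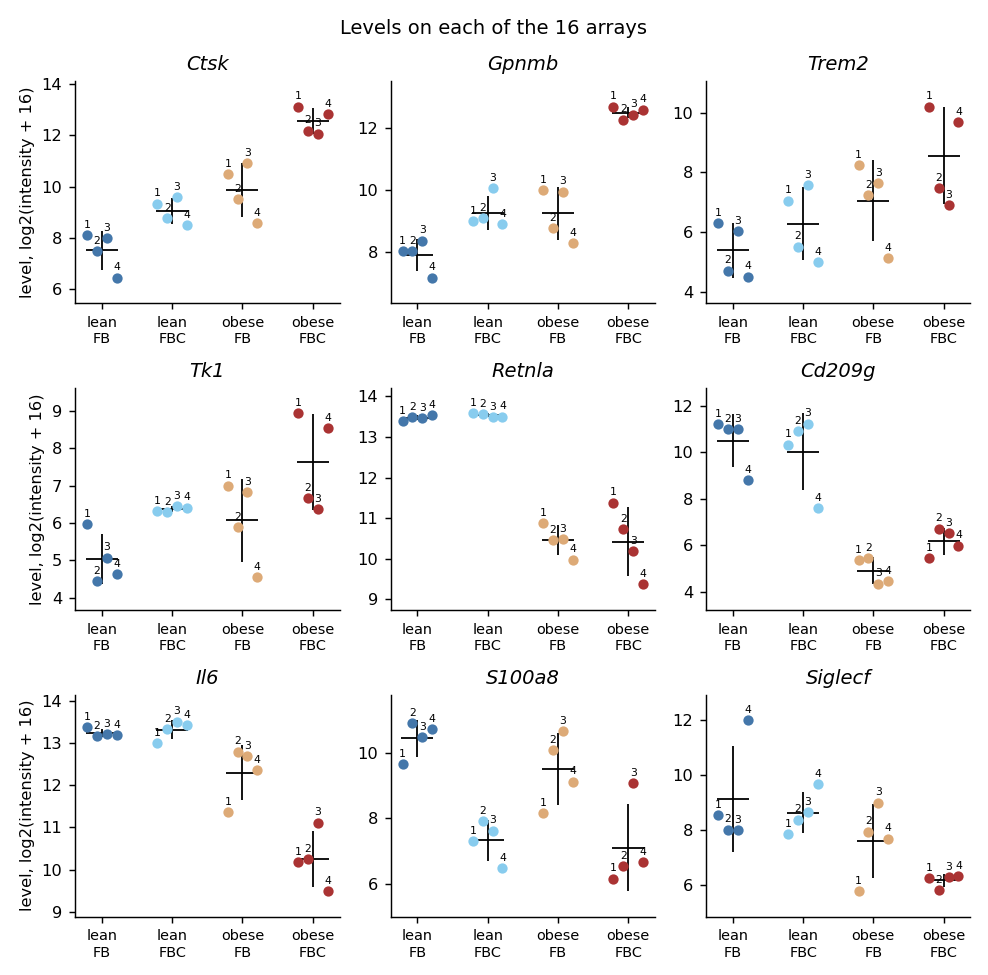
Log2 levels of 9 genes on each of the 16 arrays, with array numbers, group means (horizontal bars) and SDs (vertical bars, n = 4). Ctsk and Gpnmb are highest in obese FBC with both single-step groups between the ends, Retnla and Cd209g are low on all 8 obese arrays, S100a8 is low in both FBC groups apart from obese FBC array 3, and Siglecf is highest on lean FB array 4.

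Markers of lipid-associated macrophages rose together: 12 of 23 tested were higher in obese FBC and none was lower, with a median change of 0.79. Neither direction was called in obese FB against lean FBC for any of the 12, so none was placed on a side. Most rises of any kind, 93.5%, were undecided too. Trem2, a receptor for lipids that marks these cells, had log2 levels of 6.30, 4.71, 6.02 and 4.51 in lean FB and 10.20, 7.47, 6.91 and 9.68 in obese FBC. All obese FBC arrays were above all lean FB arrays, but arrays 1 and 4 lay well above arrays 2 and 3. The rise was 3.18 ± 0.79 (adjusted p = 0.0105), with 52.6% in obese FB and 28.2% in lean FBC, and its size is imprecise because 2 lean FB arrays were near background. With the actin ratio as covariate the rise of Trem2 was 2.04, and with the mean of its probe sets 2.06. Cd9, a tetraspanin used to sort such cells, went from 8.15, 8.34, 8.61 and 9.80 to 11.74, 10.17, 9.90 and 12.04 on the log2 level scale, a rise of 2.24 ± 0.46 (adjusted p = 0.00305), again with arrays 1 and 4 the highest. Lean FB array 4 was the highest of its group and lay just under the lowest obese FBC array. For the whole list the mean centred level was 0.86 and 0.77 on obese FBC arrays 1 and 4 and 0.47 on both arrays 2 and 3, against -0.60 to -0.33 in lean FB.

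Genes that handle stored lipid rose in part. The counts below stand beside 12.0% of all genes tested that rose and 7.64% that fell, and some are close to these shares. Nceh1, which hydrolyses cholesterol esters, had log2 levels of 8.81, 8.93, 8.87 and 8.25 in lean FB and 11.57, 11.37, 11.01 and 11.35 in obese FBC, a rise of 2.61 ± 0.27 (adjusted p = 6.43e-06). Its groups were far apart and obese FB showed 53% of the rise. Slc27a1, a fatty acid transport protein, went from 7.35, 7.68, 7.21 and 7.62 to 8.94, 9.91, 9.47 and 9.69, a rise of 2.04 ± 0.22 (adjusted p = 1.28e-05). Lean FBC showed 1.74% of it and obese FB 29.8%, and its departure from the sum of the steps was not called (1.40 ± 0.31, adjusted p = 0.069), though it was with the replicate block within genotype (adjusted p = 0.0274). Of 27 genes of fatty acid uptake, storage and lipolysis 6 rose and 2 fell. Among the rises were the binding proteins Fabp5 by 1.48 ± 0.18 and Fabp4 by 1.004 ± 0.32. The call of Fabp4 was lost on leaving out some arrays and with the actin ratio as covariate (adjusted p = 0.126). With the mean of their probe sets Fabp5 rose by 2.30 and Fabp4 by 2.42 (adjusted p = 0.000427). G0s2, an inhibitor of adipose triglyceride lipase, fell by 2.21 ± 0.36, and Dgat1, which makes triglyceride, fell by 1.43 ± 0.47, a call also lost on leaving out some arrays and, at -0.73, with that covariate (adjusted p = 0.106). Of 18 genes of cholesterol efflux, esterification and lipoproteins 5 rose, including the exporter Abcg1 by 1.53 ± 0.23 and the lipoprotein receptor Lrp1 by 1.71 ± 0.33, and 2 fell, including Olr1, a receptor for oxidised low density lipoprotein, which fell by 2.03 ± 0.51. Of 22 genes of sterol and fatty acid synthesis only Msmo1 rose, by 1.11 ± 0.22, and none fell, with a median of -0.01.

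Genes of fatty acid oxidation rose as well, with 8 of 24 tested higher, 1 lower and a median change of 0.47. Over all genes tested 12.0% rose and 7.64% fell, to which some counts in this paragraph are close. The trifunctional protein subunit Hadha rose by 1.40 ± 0.36, the thiolase Acaa2 by 1.20 ± 0.28, the carnitine transferase Cpt2 by 1.11 ± 0.26 and the medium-chain dehydrogenase Acadm by 1.08 ± 0.21. Obese FB showed 47.4%, 19.3%, 6.12% and 20.5% of these rises in that order. Of 30 respiratory chain genes 8 rose and none fell, with Ndufs3 of complex I up by 1.11 ± 0.16 and Uqcrc1 of complex III by 1.04 ± 0.25. That count was 4 without lean FB array 1 or obese FBC array 1 and 3 without lean FB array 2, and the list's median of 0.11 was close to that of all genes. Of 19 glycolysis genes 4 rose, including Ldha, lactate dehydrogenase A, by 1.26 ± 0.25 and Pdk1, which turns off pyruvate dehydrogenase, by 1.65 ± 0.25, while hexokinase 2, Hk2, fell by 1.24 ± 0.20 and the glucose transporter Slc2a3 fell by 1.84 ± 0.49. The change of Slc2a3 was -1.20 without lean FB array 4 and -1.19 with the actin ratio as covariate.

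Cell cycle genes were the list with the most rises, 27 of 42 tested, with 1 fall and a median change of 1.11. Tk1, thymidine kinase of S phase, had log2 levels of 5.96, 4.45, 5.07 and 4.64 in lean FB, 6.32, 6.29, 6.45 and 6.41 in lean FBC, 6.9996, 5.89, 6.83 and 4.56 in obese FB and 8.93, 6.67, 6.38 and 8.54 in obese FBC. Obese FBC arrays 1 and 4 were far above arrays 2 and 3, which were level with lean FBC, and the rise of 2.60 ± 0.57 (adjusted p = 0.00471) was shared between lean FBC (51.5%) and obese FB (40%). The mitotic kinase Cdk1 rose by 2.26 ± 0.32 and the ribonucleotide reductase subunit Rrm2 by 2.01 ± 0.45. The list's mean centred level was 1.12, 0.30, 0.07 and 0.82 on the obese FBC arrays and -0.71 to -0.43 on the lean FB arrays. The count of rises ranged from 21 to 32 on leaving out 1 array of either group. The fall was that of Ccnd2, cyclin D2, which fell by 2.04 ± 0.31 on the obesity side (obese FB minus lean FBC -2.41 ± 0.31, adjusted p = 0.000108).

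**Figure D4:**
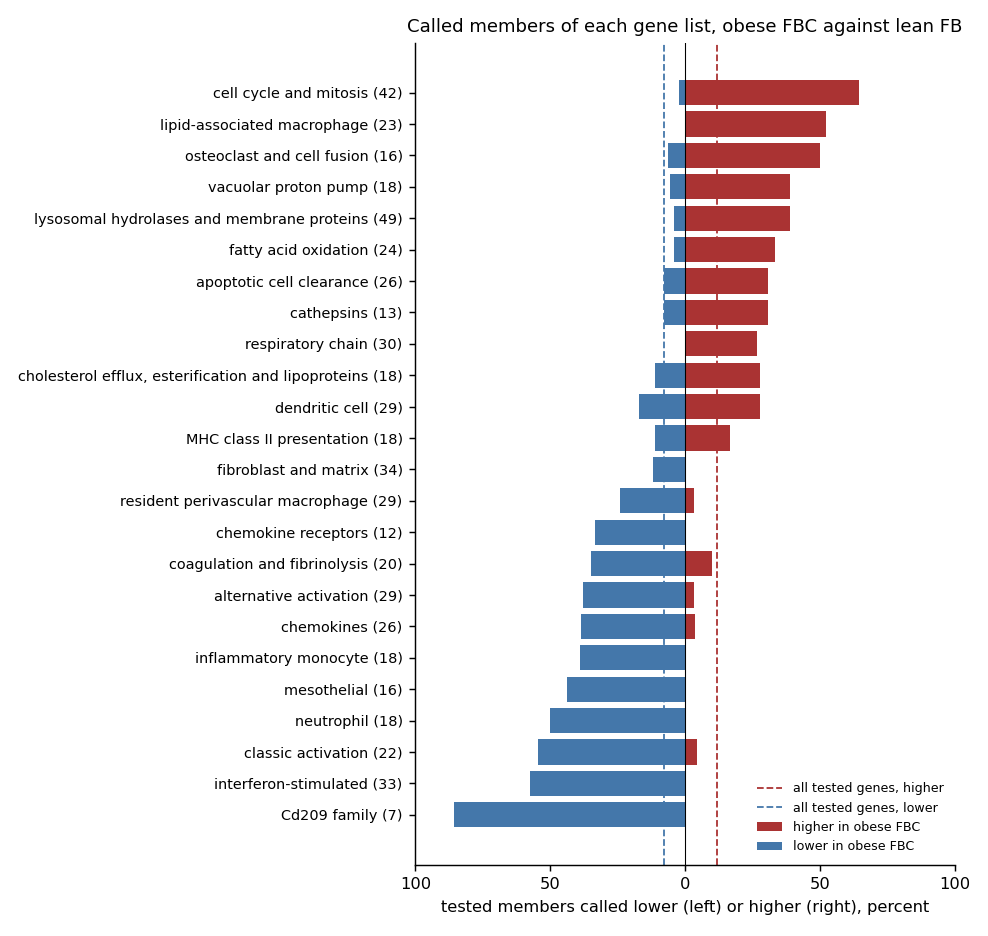
Percent of tested members (number in brackets) of 24 gene lists called higher (right, red) or lower (left, blue) in obese FBC than in lean FB, with dashed lines at the shares of all tested genes, 12.0% and 7.64%. Cell cycle, lipid-associated and osteoclast lists lie farthest right, and the Cd209, interferon-stimulated, classic activation and neutrophil lists farthest left.

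The 212 falls on the obesity side included genes of resident and alternatively activated macrophages, which were a small part of them. The alternative activation, Cd209 and resident perivascular lists had 9, 6 and 6 genes on that side, some of them shared between lists. Rnase2a, a ribonuclease of the eosinophil-associated family, had log2 levels of 11.42, 9.89, 9.95 and 8.64 in lean FB, 10.98, 9.47, 9.63 and 9.74 in lean FBC, 4.49, 4.68, 4.60 and 4.81 in obese FB and 4.62, 5.92, 5.62 and 5.73 in obese FBC. All 8 obese arrays were near background and all 8 lean arrays far above it. The change was -4.50 ± 0.46 (adjusted p = 5.63e-06), obese FB fell further (118% of it) and lean FBC differed from lean FB by -0.02 ± 0.46. Retnla, which encodes the resistin-like molecule alpha induced by interleukin 4, was at the top of the scale on all lean arrays, 13.39, 13.49, 13.47 and 13.54 in lean FB and 13.58, 13.56, 13.49 and 13.50 in lean FBC. It read 10.89, 10.45, 10.49 and 9.98 in obese FB and 11.38, 10.74, 10.19 and 9.37 in obese FBC, a change of -3.05 ± 0.31 (adjusted p = 4.97e-06). The obese groups overlapped, and since the lean levels may be saturated the fall may be larger and no share is given.

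The Cd209 genes, C-type lectins related to human DC-SIGN, fell in 6 of 7 tested members, with a median change of -2.14, and all 6 were on the obesity side. Cd209g fell most, from 11.23, 10.98, 10.999 and 8.80 in lean FB to 5.45, 6.71, 6.52 and 5.99 in obese FBC on the log2 level scale. The groups did not overlap although lean FB array 4 was low, and obese FB, at 5.36, 5.46, 4.35 and 4.46, was lower than obese FBC in its mean. The change was -4.34 ± 0.66 (adjusted p = 0.000353), of which obese FB showed 129% and lean FBC 11%. Cd209f fell by 3.16 ± 0.64, Cd209d fell by 2.30 ± 0.40 and Cd209b fell by 2.14 ± 0.66, the last a call that was lost on leaving out some arrays. These genes are near copies of each other and 1 probe set may not separate them. Other genes of resident cells were lower too: Timd4, a receptor for phosphatidylserine, fell by 2.17 ± 0.36 and Fcrls, an Fc receptor-like scavenger protein, fell by 2.04 ± 0.30, both on the obesity side, whereas Vsig4, a complement receptor of resident macrophages, rose by 2.46 ± 0.41. Of the 29 resident perivascular genes tested 7 fell, 4 of them Cd209 genes, and 1 rose.

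Of 29 genes of alternative activation 11 fell and 1 rose, with a median change of -0.63, and 9 of the 12 were on the obesity side. Ccl17, a chemokine for T cells expressing Ccr4, had log2 levels of 8.33, 9.17, 8.91 and 8.88 in lean FB, 9.30, 10.11, 10.21 and 10.72 in lean FBC, 5.68, 5.50, 6.15 and 6.44 in obese FB and 6.58, 6.75, 6.94 and 6.70 in obese FBC. The 4 groups did not overlap at all, with lean FBC the highest and obese FB the lowest. The whole change was -2.08 ± 0.28 (adjusted p = 9.25e-05), where obese FB alone differed from lean FB by -2.88 ± 0.28 and lean FBC by 1.26 ± 0.28. Aldh1a2, which makes retinoic acid and also marks mesothelial cells, had the same order, with 10.09, 10.72, 10.86 and 9.80 in lean FB, 11.04, 10.93, 11.11 and 11.76 in lean FBC, 7.15, 6.94, 6.62 and 6.65 in obese FB and 8.60, 8.82, 8.37 and 8.51 in obese FBC. It fell by 1.79 ± 0.24 (adjusted p = 0.000122), and obese FB differed from lean FBC by -4.37 ± 0.24 (adjusted p = 3.62e-08). Ccl24, an eosinophil chemokine, fell by 2.34 ± 0.40 and Irf4, a transcription factor of the interleukin 4 response, fell by 1.17 ± 0.23.

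More obesity-side falls came from genes of lipid mediators and of fat cells. Pla2g2d, a secreted phospholipase, fell by 3.76 ± 0.62, of which obese FB showed 99.2%, and Sult1e1, estrogen sulfotransferase, fell by 4.49 ± 0.65, of which it showed 104%. Car3, a carbonic anhydrase abundant in fat cells, fell by 3.77 ± 0.50 with 115% in obese FB, and 1 of its 3 other probe sets went the other way. Of the adipocyte list's 11 tested genes 3 fell and 2 rose, and its summed intensity ranged from 3859 to 12066 in lean FB and from 6979 to 7393 in obese FBC. Flrt3, an adhesion protein of the mesothelial list, fell by 2.90 ± 0.29 and Cd2, an adhesion receptor of T cells, fell by 2.72 ± 0.33, both with obese FB below lean FBC (differences of -3.84 ± 0.29 and -3.55 ± 0.33). Ccr1, a chemokine receptor of monocytes, fell by 2.15 ± 0.20 with 63.5% in obese FB. Mmp9, gelatinase B, fell by 3.80 ± 0.47 from 11.57 ± 0.36 to 7.77 ± 0.19 (SD, n = 4), with 73.8% in obese FB, but its side was lost without lean FBC array 1, 2 or 3 or obese FB array 1.

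Genes of inflammation fell rather than rose. Of 22 classic activation genes 12 fell and 1 rose, with a median change of -1.04. Il6, the gene of interleukin 6, had log2 levels of 13.37, 13.17, 13.22 and 13.19 in lean FB, 12.99, 13.34, 13.51 and 13.42 in lean FBC, 11.36, 12.80, 12.68 and 12.36 in obese FB and 10.18, 10.25, 11.11 and 9.49 in obese FBC. The lean groups overlapped each other, and every obese FB array lay between them and the obese FBC arrays. The change was -2.98 ± 0.31 (adjusted p = 8.86e-06), with 31.4% in obese FB and -2.64% in lean FBC. The lean levels were near the top of the scale and may be saturated. The fall of Il6 may therefore be larger, and these shares and its departure given below are imprecise. Acod1, which makes itaconate, read 10.21, 10.24, 10.13 and 11.14 in lean FB and 6.84, 5.58, 6.26 and 8.04 in obese FBC, a change of -3.75 ± 0.48 (adjusted p = 6.53e-05). Within obese FB, at 8.43, 10.33, 10.30 and 10.46, array 1 was low, and each step showed a small share, 14.7% in obese FB and 13.9% in lean FBC. The costimulatory gene Cd80 fell by 2.26 ± 0.35 and the interleukin 1 alpha gene Il1a fell by 2.03 ± 0.41. The departure of Il6 from the sum of the steps, -2.12 ± 0.44, was not called (adjusted p = 0.0666) but was with the replicate number within genotype as a block (adjusted p = 0.0252) or as a random block (0.0193). That of Acod1, -2.68 ± 0.68 (adjusted p = 0.11), passed with the random block (0.042) but not with the replicate block within genotype (0.0568).

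Serpinb2, an inhibitor of plasminogen activators that inflamed macrophages make, was the largest fall of all. Its log2 levels were 11.75, 11.52, 11.69 and 12.69 in lean FB, 10.74, 11.13, 11.45 and 11.59 in lean FBC, 8.93, 10.45, 10.85 and 10.88 in obese FB and 7.42, 6.32, 7.22 and 7.30 in obese FBC. All obese FBC arrays were below every other array, and the change of -4.85 ± 0.39 (adjusted p = 5.8e-07) was seen at 33.8% in obese FB and 14.2% in lean FBC. Of 20 genes of coagulation and fibrinolysis 7 fell and 2 rose, with a median of -0.62, and 4 fell without obese FBC array 2.

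Interferon-stimulated genes fell in 19 of 33 tested and rose in none, with a median change of -0.99. Ifit1, an antiviral RNA-binding protein, had log2 levels of 10.31, 10.57, 10.57 and 9.12 in lean FB, 9.87, 10.64, 11.24 and 9.15 in lean FBC, 7.85, 7.85, 7.61 and 8.02 in obese FB and 8.28, 7.87, 8.002 and 8.64 in obese FBC. All 8 obese arrays were below all 8 lean arrays, the change was -1.95 ± 0.38 (adjusted p = 0.0024), and obese FB showed 119% of it. Gbp3, a guanylate-binding protein, fell by 1.70 ± 0.23 and Ifih1, the RNA sensor MDA5, fell by 1.55 ± 0.28, with 69% and 65.2% in obese FB. Isg20, an exonuclease, fell by 1.63 ± 0.31 and was not placed on a side, and obese FB differed from lean FB by 0.02 ± 0.31. The list's mean centred level was 0.38 to 0.46 in lean FB and -0.63 to -0.20 in obese FBC, without overlap, and the count of falls was 19 without lean FB array 4.

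Of 26 chemokine genes 10 fell and 1 rose, with a median of -0.92. The count of falls was 6 without lean FB array 1, 2 or 3 or obese FBC array 2, and 14 without lean FB array 4. Cxcl12, a stromal chemokine, fell by 2.55 ± 0.46 (1 of 2 other probe sets went the same way), Cxcl3, a neutrophil attractant, fell by 2.19 ± 0.43, Ccl7, a monocyte attractant, fell by 2.56 ± 0.79 (a call lost on leaving out some arrays) and Cxcl11, induced by interferon, fell by 1.57 ± 0.41. Of 12 chemokine receptors 4 fell and none rose, including Ccr2, the receptor by which monocytes enter tissue, which fell by 0.94 ± 0.17 and Cxcr2, a receptor of neutrophils, which fell by 1.45 ± 0.34. Obese FB differed from lean FB by 0.31 ± 0.17 for Ccr2, opposite to the whole change.

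**Figure D5:**
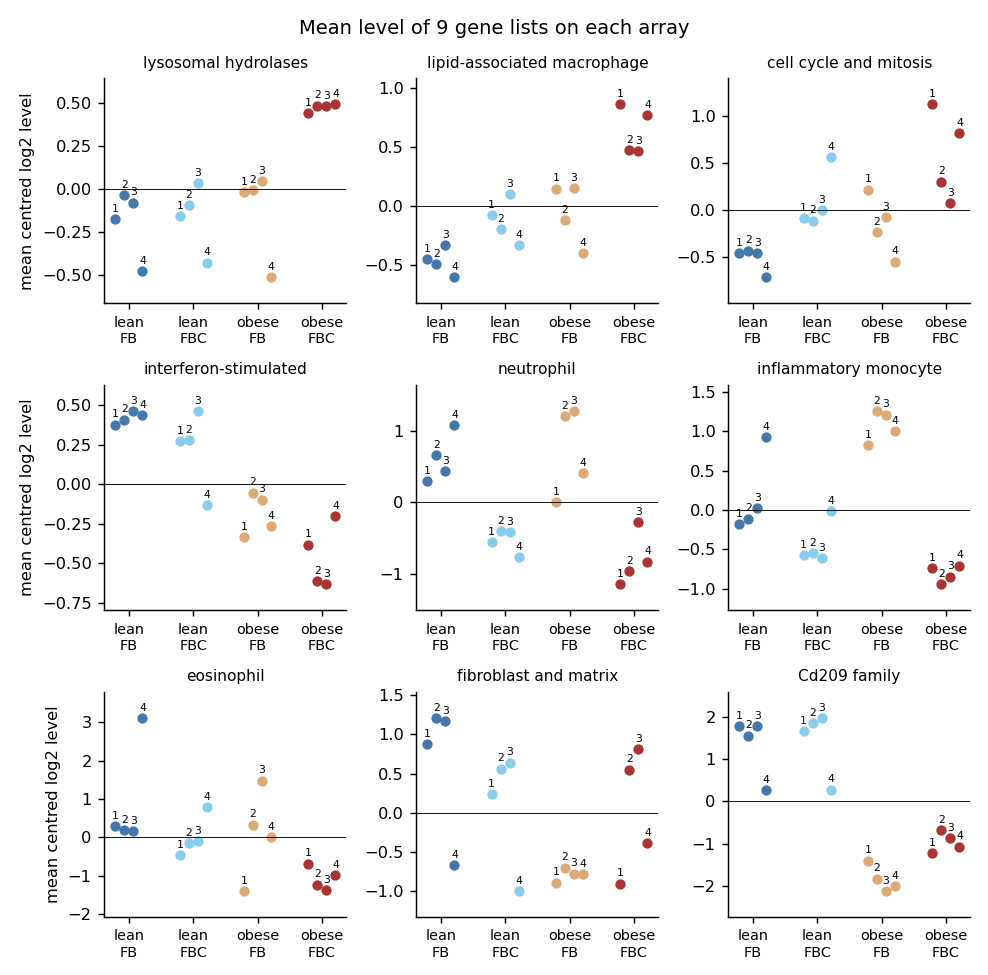
Mean centred log2 level of the tested genes of 9 lists on each of the 16 arrays, with array numbers. The lysosomal and lipid-associated lists are highest on all 4 obese FBC arrays, the neutrophil and monocyte lists are higher on every obese FB than on any obese FBC array, and lean FB array 4 stands apart in the eosinophil and fibroblast lists.

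Falls on the CD11c side included genes of monocytes and neutrophils. Vcan, the proteoglycan versican that classical monocytes express, had log2 levels of 8.88, 9.04, 9.30 and 10.37 in lean FB, 8.22, 7.63, 7.35 and 7.49 in lean FBC, 9.51, 10.83, 10.82 and 10.82 in obese FB and 6.44, 6.35, 6.56 and 6.62 in obese FBC. Every FBC array was below every FB array, 5 of 7 other Vcan probe sets moved the same way, and obese FB had the highest mean. The change was -2.91 ± 0.33 (adjusted p = 1.96e-05), while obese FB alone stood 1.10 ± 0.33 above lean FB and 2.83 ± 0.33 above lean FBC (adjusted p = 4.11e-05). Plac8, another monocyte gene, went from 10.87, 11.19, 11.10 and 13.20 in lean FB to 9.94, 8.73, 9.04 and 10.43 in obese FBC, without overlap, with 8.47, 8.87, 8.81 and 10.80 in lean FBC and 12.41, 13.26, 13.27 and 12.90 in obese FB. Its change of -2.06 ± 0.54 (adjusted p = 0.0141) was -1.51 without lean FB array 4, the highest of its group. Of 18 inflammatory monocyte genes 7 fell and none rose in obese FBC, and on the other arrays 8 were higher in obese FB than in lean FBC and none lower.

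S100a8, a subunit of the calprotectin of neutrophils and monocytes, had log2 levels of 9.66, 10.92, 10.47 and 10.73 in lean FB, 7.30, 7.91, 7.62 and 6.48 in lean FBC, 8.17, 10.09, 10.66 and 9.12 in obese FB and 6.16, 6.53, 9.07 and 6.65 in obese FBC. Obese FBC array 3 stood apart from its group but below all lean FB arrays. The change was -3.34 ± 0.59 (adjusted p = 0.00114), of which lean FBC showed 93.3% and obese FB 28%, but its place on the CD11c side (adjusted p = 0.034) was lost without any one lean FBC array or obese FB array 2 or 3, with adjusted p-values of 0.050 to 0.12. Its partner S100a9 fell by 3.52 ± 0.55 with 61.7% in lean FBC. Of 18 neutrophil genes 9 fell and none rose, with a median of -1.02, and on the other arrays 7 were higher in obese FB than in lean FBC and 1 lower. The neutrophil list's summed intensity was 6980 to 11466 in lean FB, 2913 to 4348 in lean FBC, 4821 to 11675 in obese FB and 1433 to 2535 in obese FBC. By the rule 3 of the 9 falls were on the CD11c side, 1 was on the obesity side and 5 were undecided. The part of that cell type in the other falls was not tested.

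F5, coagulation factor V, had the largest fall on the CD11c side, and a group of granulocyte genes fell as well. Log2 levels of F5 were 9.93, 9.96, 9.88 and 12.68 in lean FB, 7.46, 7.03, 7.19 and 8.95 in lean FBC, 8.22, 10.19, 10.85 and 10.06 in obese FB and 5.71, 6.14, 5.90 and 6.18 in obese FBC. Lean FB array 4 was far above its group, and the change of -4.63 ± 0.61 (adjusted p = 9.25e-05) was -3.94 without it (adjusted p = 8.06e-05). Lean FBC showed 63.8% of the fall, but the CD11c side of F5 (adjusted p = 0.0433) was lost in many settings, as was that of Hdc, histidine decarboxylase, which fell by 3.98 ± 0.34. Rab44, a Rab GTPase of granulocytes and mast cells, fell by 4.31 ± 0.57 and was undecided. Siglecf, the eosinophil lectin, read 8.53, 8.01, 7.98 and 11.98 in lean FB and 6.26, 5.79, 6.27 and 6.32 in obese FBC, without overlap. Its change of -2.97 ± 0.76 (adjusted p = 0.0117) was -2.01 without lean FB array 4 (adjusted p = 0.0165), and that of Alox15, a lipoxygenase of eosinophils and resident macrophages, went from -3.37 ± 0.83 to -2.44. Of the other defining eosinophil markers, Epx and Prg2 were below the array median on all 16 arrays, while Ccr3 was above it on 4 and reached 9.43 on lean FB array 4, and its difference of -1.29 ± 0.74 was not called (adjusted p = 0.238). The difference of Ccr3 was -0.31 without that array, and the summed intensity of the 5 tested eosinophil genes was 2894 to 18485 in lean FB and 536 to 1357 in obese FBC.

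Lif, a cytokine of the interleukin 6 family, was on the CD11c side and departed most firmly from the sum of the steps. Its log2 levels were 7.77, 8.15, 8.21 and 8.89 in lean FB, 7.80, 7.43, 7.61 and 7.92 in lean FBC, 9.23, 9.57, 9.16 and 9.27 in obese FB and 6.42, 5.96, 5.84 and 5.87 in obese FBC. Obese FB was the highest group and obese FBC the lowest, with no overlap between these and the lean arrays. Obesity went with a difference of 1.05 ± 0.22 in FB cells and -1.67 ± 0.22 in FBC cells, a departure of -2.72 ± 0.31 (adjusted p = 0.00155). Over all genes 10 departed above the sum (0.0840%) and 9 below it (0.0756%), at adjusted p under 0.05. This test sets FB against FBC cells of the same mice, and whether array numbers stand for mice is not stated. Residuals of same-numbered arrays correlated at 0.14, 0.23, 0.30 and 0.60 between lean FB and lean FBC, and at 0.31, 0.03, -0.03 and -0.14 between obese FB and obese FBC. With the replicate block within genotype 230 genes departed and with mouse as a random block 158, and the 19 genes were among both. Pkp2, a desmosome protein, departed upward: it read 6.04, 5.93, 6.41 and 5.52 in lean FB, 5.84, 5.13, 5.29 and 5.63 in lean FBC, 5.31, 4.62, 5.51 and 5.06 in obese FB and 7.96, 6.95, 7.07 and 7.73 in obese FBC. All obese FBC arrays were above every other array, and the departure was 2.80 ± 0.38 (adjusted p = 0.00739), although 1 of its 3 other probe sets differed the other way between the ends. Htr2b, a serotonin receptor, read 4.49, 4.21, 4.37 and 4.23 in lean FB and 8.58, 8.62, 8.08 and 7.77 in obese FBC, with obese FB at 5.77, 4.49, 5.41 and 5.33, and rose by 3.94 ± 0.31 with 23.4% in obese FB. Its departure of 2.68 ± 0.44 (adjusted p = 0.0348) was lost in 11 of 31 other settings. Htr2b in lean FB and obese FB, and Pkp2 in every group but obese FBC, read near or below the array median. Steps at such levels can be understated, so the size of both departures is imprecise. The calls for the other genes named by this rule were lost in 4 to 18 settings. Of all counts here this one moved most with single arrays, from 2 genes without lean FBC array 3 or obese FB array 3 to 344 without lean FB array 4.

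Genes of antigen presentation and dendritic cells moved both ways. The counts below stand beside 12.0% of all genes tested called higher and 7.64% called lower, and some are close to these shares. Of 29 dendritic cell genes 8 rose and 5 fell, with a median change of 0.03, while obese FB was lower than lean FBC in 14 and higher in 1. Flt3, the receptor for a growth factor of dendritic cells, rose by 1.58 ± 0.35, whereas Zbtb46, a transcription factor of these cells, differed by -0.92 ± 0.33 (adjusted p = 0.0622), with lean FBC the highest group at 8.37 ± 0.58 (SD, n = 4). Of 18 MHC class II genes 3 rose and 2 fell: Lgmn, a lysosomal asparaginyl protease, rose by 1.51 ± 0.32, and H2-DMa, part of the peptide loader, fell by 0.94 ± 0.21 on the obesity side. Of 26 genes of apoptotic cell clearance 8 rose and 2 fell: Mfge8, a bridge from dying cells to integrins, rose by 1.96 ± 0.29 and Stab2, a scavenger receptor for phosphatidylserine, by 2.06 ± 0.14, and Cd300lf, a lipid receptor, fell by 3.15 ± 0.63. Of 34 transcription factor genes 4 were higher, close to the share of all genes, and 5 lower. Cebpa, a factor of myeloid identity, rose by 1.61 ± 0.25 while Rel, a subunit of nuclear factor kappa B, fell by 1.13 ± 0.23. Of 24 genes of the amino acid stress response 2 rose and 4 fell, and Atf4 itself fell by 1.20 ± 0.16 although 1 of its 2 other probe sets went up. Asns, asparagine synthetase, rose by 1.41 ± 0.18. The falls numbered 2 without lean FB array 2 or 3 or obese FBC array 2.

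Smaller lists filled in the rest, with counts to be read beside the 12.0% of all genes tested that rose and the 7.64% that fell. Of 21 genes of eicosanoid synthesis 3 rose and 6 fell: Hpgds, a prostaglandin D synthase, rose by 1.86 ± 0.47 (by 1.21 with the actin ratio as covariate) and Alox5, 5-lipoxygenase, fell by 1.89 ± 0.27. Of 17 complement genes 3 rose and 1 fell, C6, a part of the membrane attack complex, up by 1.79 ± 0.37, and Cd55, which protects cells from complement, fell by 2.12 ± 0.32. Of 24 iron and heme genes 5 rose and 2 fell, Blvra, biliverdin reductase, rising by 1.19 ± 0.18, and 3 rose without lean FB array 1 or 2 or obese FBC array 2 or 3. Csf1, the growth factor of macrophages, fell by 1.85 ± 0.33, but with the mean of its probe sets the change was -0.60 and was not called (adjusted p = 0.053). Csf2ra, a receptor subunit for granulocyte-macrophage growth factor, fell by 1.001 ± 0.20. Il7r, the interleukin 7 receptor, rose by 2.54 ± 0.32. Of 34 immediate early and dissociation stress genes 4 fell, including Egr3, a transcription factor of early responses, which fell by 1.27 ± 0.27, and 1 rose, with 2 falls without lean FB array 2 or obese FBC array 1 or 4.

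Markers of stromal cells were present in all groups at levels that moved with single arrays. Their counts stand beside 12.0% of all genes tested that rose and 7.64% that fell, and some are close to these shares. Dcn, the proteoglycan decorin of fibroblasts, had log2 levels of 13.30, 13.40, 13.44 and 10.56 in lean FB, 12.41, 12.96, 12.88 and 9.51 in lean FBC, 9.85, 9.98, 9.82 and 9.61 in obese FB and 9.83, 11.45, 12.62 and 10.16 in obese FBC. The groups compared overlapped through lean FB array 4 and obese FBC array 3, and the difference of -1.66 ± 0.77 was not called (adjusted p = 0.142) but was with lean FB array 4 left out, with a change of -2.34 (adjusted p = 0.0285). Of 34 fibroblast and matrix genes 4 fell and none rose, and 11 fell without lean FB array 4. Leaving out lean FB array 1, 2 or 3 or obese FBC array 1 or 4 left 2 falls. The summed intensity of that list was 29842 to 65967 in lean FB and 21741 to 48210 in obese FBC. Pcolce, an enhancer of collagen processing, fell by 2.02 ± 0.42, while the collagens Col1a1 and Col3a1 differed by -0.32 ± 0.47 and 0.19 ± 0.71, not called. Of 16 mesothelial genes 7 fell and none rose, 10 without lean FB array 4, 4 without lean FB array 1 or 2 and 3 without lean FB array 3 or obese FBC array 4.

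Markers of lymphocytes gave mixed values, with counts to be read beside the 12.0% of all genes tested that rose and the 7.64% that fell. Of 10 B cell genes 5 fell, including Bank1, a B cell scaffold protein, which fell by 3.21 ± 0.31, Ms4a1, the gene of CD20, which fell by 2.22 ± 0.34, and Jchain, of secreted IgA and IgM, which fell by 1.91 ± 0.51 (a call lost on leaving out some arrays), and 1, the sialic acid lectin Cd22, rose by 2.28 ± 0.32. The summed intensity of the B cell list was 9724 to 16481 in lean FB and 6424 to 8311 in obese FBC. Of 14 T and NK cell genes 3 fell and 1 rose, and the defining markers Cd3e and Ncr1 were below the array median on all 16 arrays and Cd3g on 13. Of the mast cell markers, the protease gene Mcpt4 was below it on all 16 arrays, whereas Cpa3, a carboxypeptidase of mast cells, was above it on all 16. Cpa3 differed by -1.29 ± 0.46 and was not called (adjusted p = 0.0587), but it was without lean FB array 4, at -1.76 (adjusted p = 0.00603). Of the endothelial markers, Pecam1 was below the median on all 16 arrays, Cdh5 above it on 7 and Kdr above it on 15, and neither Cdh5 (0.76 ± 0.30, adjusted p = 0.0865) nor Kdr (0.0005 ± 0.23, adjusted p = 0.999) was called. Of 14 endothelial genes tested 1, Fabp4, was called. The part of other cell types in the falls of their markers was not tested.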

How the data were processed

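RNA of sorted adipose macrophages was amplified in 2 rounds and read on 16 mouse expression arrays, 4 a group, per the labels. The values the authors deposited are linear intensity per probe set. The submitters' processing notes name Affymetrix Expression Console, while its version and how probes were summarized were not given in the sources used here. Each array had a trimmed mean intensity of 250. Values were taken as log2(intensity + 16) and quantile-normalized. The brightest single-symbol probe set stood for each of 18193 genes, and the 11908 genes brighter than an array's median on 4 arrays or more were tested. A single limma fit to all 4 groups (12 residual and 16.5 total degrees of freedom) with Benjamini-Hochberg adjustment and a threshold of 0.05 gave obese FBC against lean FB, obese FB against lean FBC and the departure from additivity. On simulated data of 11908 genes it recovered 53 of 100 genes changed by a log2 of 1 and 96 of 100 changed by 2 in the first comparison, with 12 false calls. The number of arrays limits the precision.

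The arrays, gene lists and tests were chosen with earlier results of these data known. Genes named are the 12 highest and 12 lowest changes without overlap, the 6 and 6 of each side and of the departures, up to 4 called members per list with the largest change, and fixed markers, in part left out for length. Cln3 and Naglu are named for their promoters. Alternatives covered filter, probe set choice, normalization, pseudocount, eBayes settings, array weights, blocks, RNA quality, a 2-fold minimum and each array left out. FB and FBC came from the same mice, but the labels do not say that array numbers stand for mice. Same-numbered arrays had residual correlations above 0.1 in every pair within the lean mice but in only 1 of 4 within the obese, and of -0.05, 0.13, 0.11 and 0.13 between lean FB and obese FBC. The main model therefore had no block, and blocked counts are given beside the departures. Leaving single arrays out of gene lists was chosen after seeing the data. The fits used limma 3.58.1 in R 4.3.3, and figures matplotlib 3.10.9 in Python 3.11.15.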

Additional observations from a re-analysis of the deposited data

Results flagged for a closer look

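Single arrays far from the other 3 of their group were found in 16 of 148 groups examined (37 genes in 4 groups). About 1 in 20 groups would pass by chance if the genes were independent and not chosen from these data, which does not hold here. Of the 16, 9 were lean FB array 4. On that array the log2 levels were low for Mmp12 (5.54), Cpe (7.13), Cd209g (8.80) and Dcn (10.56), and high for Rnf128 (8.23), Acod1 (11.14), F5 (12.68), Plac8 (13.20) and Siglecf (11.98). In lean FBC, array 3 was high for Gpnmb at 10.07, and array 4 was high for Cd9 at 10.33 and low for Dcn at 9.51. In obese FB, array 1 was low for Acod1 at 8.43 and for Vcan at 9.51. In obese FBC, array 3 was high for S100a8 at 9.07 and array 2 was low for Siglecf at 5.79.

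The log2 effect of obesity differed between FBC and FB cells, by the test of the difference, for 12 genes named by rule. It was greater in FBC by 3.61 for Rusc2, 2.93 for Lims2, 2.80 for Pkp2, 2.68 for Htr2b, 2.19 for Mfge8 and 1.96 for Slurp1. The difference was -1.90 for Calcb, -1.94 for Ear3, -2.15 for Efnb2, -2.57 for Slc7a11, -2.57 for Plcb1 and -2.72 for Lif. For Rusc2, Lims2, Slurp1, Calcb and Slc7a11 the whole change from lean FB to obese FBC was not called. Lif kept its call in every setting run, and so did Pkp2 in every setting that gave it a value.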

How the results depend on the processing

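No called change of obese FBC from lean FB among the named genes reversed under any setting run. Of these 174 called named genes, 142 kept their call in all settings. Named differences that were not called could change sign, as the positive difference of Col3a1 did without lean FB array 4 (-0.48). Array weights raised every count, to 4173 changed genes, 4338 between obese FB and lean FBC, 1536 departures from additivity, 1670 genes on the obesity side and 279 on the CD11c side. Without the 3 arrays of high actin ratio there were 1793 genes between obese FB and lean FBC, 295 departures and 860 genes on the obesity side. The replicate block gave 2774 changed genes and 152 departures, the replicate block within genotype 230 departures, and mouse as a random block 158. Departures numbered 3 with no filter, 9 over single probe sets, 4 with a pseudocount of 1 and 30 with trend and robust settings. A 2-fold minimum kept 1111 changed genes. Leaving out single arrays gave 1625 to 2588 changed genes, 474 to 1142 between obese FB and lean FBC, 2 to 344 departures, 181 to 420 genes on the obesity side and 35 to 66 on the CD11c side. The cause of these shifts was not tested. With 4 arrays a group, dim genes and the departures are the least certain values.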
